A study of Mus musculus with 7 samples.

Results

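Open chromatin was described at 9 genes of the voltage-gated sodium channel family: the pore-forming alpha subunit genes Scn1a, Scn2a, Scn3a, Scn8a and Scn9a, the related Scn7a, and the auxiliary beta subunit genes Scn2b, Scn3b and Scn4b. The genes were given as a list, and the peaks were those that overlapped a gene body plus 20 kb on each side (the gene window) in the mm10 assembly. They are 9 of 21938 protein-coding genes. Their windows held 654 of the 1190565 distinct intervals in the 7 peak lists, and 204 of the 285837 that reached a −log10 q of 2, where q is the false discovery rate of the peak caller. Such peaks are called strong peaks here, and the others weaker peaks. Of these genes, 5 lie in one stretch of chromosome 2, 3 on chromosome 9 and 1 on chromosome 15.

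The assay was ATAC-Seq, in which a transposase cuts and tags accessible DNA, on FACS-sorted islet cells of healthy mice. The mice carried a nuclear mCherry driven by the Ins1 promoter (mIns1-H2b-mCherry) and a Rosa-LSL-YFP reporter that Cre switches on. They were also crossed to Sst-Cre or Gcg-Cre, so that the YFP followed the somatostatin or the glucagon promoter, and animals of one sex were pooled for a sample. There were 2 alpha, 3 beta and 2 delta libraries, labelled as biological replicates, and no library of another condition. Each cell type was therefore defined by a reporter, and mice of all groups carried the mCherry and YFP alleles. Alpha cells were sorted by YFP from the Gcg-Cre mice and delta cells by YFP from the Sst-Cre mice. Between alpha and delta, cell type thus cannot be told apart from Cre line and animals. The labels do not say which Cre line each beta library came from.

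The libraries differed in ways that bear on every count. The alpha lists held 49047 to 52057 strong peaks, the delta lists 41683 to 47042 and the beta lists 25903 to 38058, so the beta lists were the shortest. Beta 1 had the longest full list, 518503 intervals, of which 5.0% were strong, against 29.8% to 54.9% in the other 6 lists. The names under which the 3 beta lists were deposited carry the name of another cell type, and the cell type of the sample labels is used here. At the starts of 7 alpha marker genes, both alpha lists had a peak at all 7, the beta lists at 2 each and the delta lists at 5 or 6. Of 7 delta marker genes, the delta lists had 4 each, the alpha lists 4 or 5 and the beta lists 0 or 1. Of 8 beta marker genes, the beta lists had 3 to 5, the alpha lists 4 or 5 and the delta lists 5 or 6, and Ins2 and Slc2a2 had none in any list, so the beta markers did not set the beta lists apart. At the hormone genes, Ins1 had its start peak in beta 1, beta 3 and delta 1, and in no alpha list. Sst had one in beta 1 and in no alpha or delta list, and Gcg had one in both alpha lists and in delta 2. Start peaks of 4 immune and 4 acinar marker genes were absent from all 7 lists, those of 4 endothelial genes were absent except Kdr in delta 1, and of 3 duct genes Cftr had one in both delta lists. Of 4 neuronal genes, which islet cells also use, 2 or 3 had one in every list. The part of other cells in the results below was not tested.

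Voltage-gated sodium channels open on depolarization and carry the fast inward current at the start of an action potential. Islet endocrine cells are electrically active, and in mouse beta cells much of the sodium current runs through Nav1.7, the product of Scn9a, with Nav1.3, the product of Scn3a, as a further contributor in islet cells. The alpha subunit forms the pore, and the beta subunits are single-pass membrane proteins that alter gating and membrane placement. Open chromatin at a gene is no measure of its transcript or current.

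Strong peaks were most frequent at Scn9a and Scn3a. The windows of all 9 genes together held 37 and 42 distinct strong peaks in alpha 1 and alpha 2, 18, 18 and 25 in beta 1, 2 and 3, and 33 and 31 in delta 1 and delta 2. Every beta list was thus below every alpha and delta list in number. Per 10000 peaks of a list the values were 7.11 and 8.56 in alpha, 6.95, 5.62 and 6.57 in beta, and 7.02 and 7.44 in delta, and on this scale beta 1 was close to delta 1, so the gap narrowed once the length of the lists was taken into account. Summed over the 7 lists and per 100 kb of window, Scn3a had 35.2 peaks and Scn9a 34.4, above 83.7% and 82.8% of protein-coding genes. The median of the 9 genes was 10.6, below the 17.2 of all protein-coding genes. Scn3b had 16.0, Scn1a 11.4, Scn8a 10.6, Scn2a 8.57, Scn7a 5.94, Scn4b 3.59 and Scn2b 1.91 peaks per 100 kb.

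**Figure D1:**
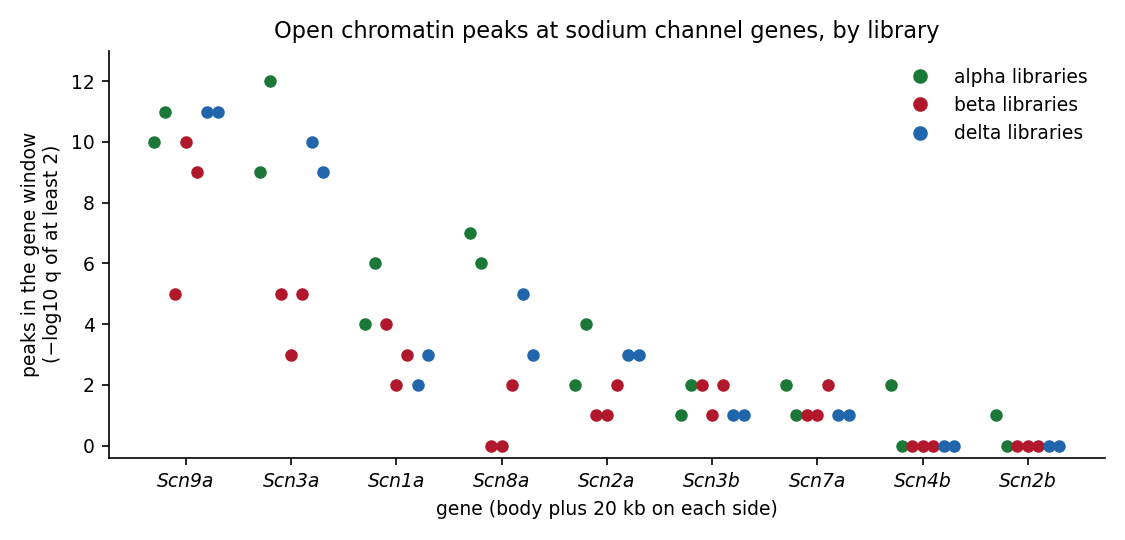
Strong peaks (y axis, number with a −log10 q of 2 or more) in the window of each sodium channel gene (x axis), 1 point per library, coloured by cell type. Scn9a had 5 to 11 peaks in every library and Scn3a 3 to 12, while Scn8a had 0, 0 and 2 in beta against 6 and 7 in alpha.

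Whether the number of peaks at a gene differed among the cell types was tested for each gene on the peaks per 10000, with an exact permutation test that compared the spread of the group means with its value in each of the 210 ways to label the 7 libraries. None of 20330 genes tested reached an adjusted p of 0.05 (0% called), the smallest p this design allows was 0.00952, and 1639 genes (8.06%) had an unadjusted p of at most 0.05. Among the 9 sodium channel genes 1 did, Scn8a. The limma moderated F test on the log2 scale also called 0 genes, with 2661 at an unadjusted p of at most 0.05. No difference in peak number at any of these genes passed the correction for the number of genes. In the permutation test, an adjusted p of 0.05 needs more genes at the smallest p than the 1639 that reached 0.05 at all. Its count of 0 therefore does not show that the cell types are alike. This limit does not hold for the limma test.

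The 5′ ends of Scn9a, Scn3a and Scn3b were open in all 7 libraries, and those of Scn1a and Scn2b passed the threshold in none. A gene was counted as open in a cell type where 2 or more replicates had a strong peak within 1 kb of its 5′ end. By this count 4 of the 9 genes were open in alpha cells (Scn3a, Scn8a, Scn9a and Scn3b), 3 in beta cells (the same without Scn8a) and 5 in delta cells (the alpha set and Scn7a). Of all protein-coding genes, 51.5% were open in alpha, 41.4% in beta and 48.4% in delta, so these shares were close to the background. With the starts of all annotated transcripts admitted, the counts were 6 in alpha, 5 in beta and 6 in delta, against 55.9%, 45.5% and 52.7% of all genes. A start peak in 2 or more replicates of a cell type and none of another was found once, for Scn7a in delta and not in beta (2.95% of all genes). No member was called for alpha and not beta (0 genes, background 4.20%), beta and not alpha (0.273%), alpha and not delta (1.36%), delta and not alpha (0.479%) or beta and not delta (0.333%).

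**Figure D2:**
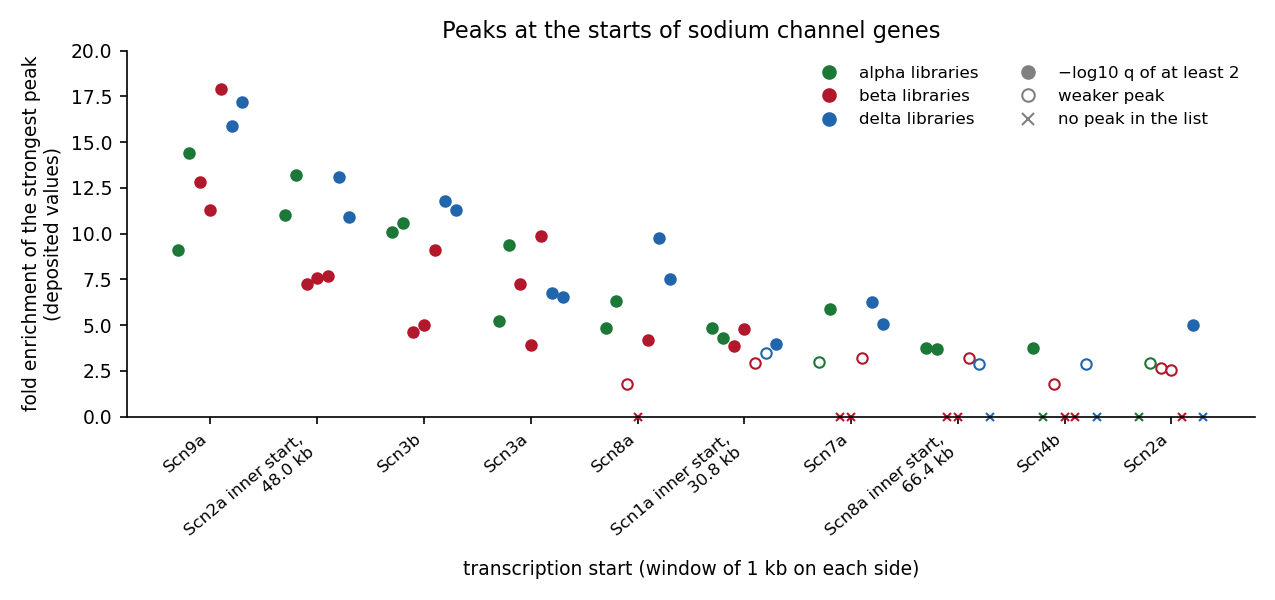
Fold enrichment of the strongest peak (y axis, linear, as deposited) within 1 kb of each transcription start (x axis), 1 symbol per library, for starts with a strong peak (−log10 q of 2 or more) in 1 or more libraries. Filled points are strong, open points are weaker peaks and crosses mark libraries with no peak. Scn9a, the inner start of Scn2a, Scn3b and Scn3a were filled in all 7 libraries, and Scn8a, Scn7a and Scn4b in part of them.

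Scn9a (chr2:66480080-66634962, minus strand) encodes Nav1.7, a channel of sensory neurons and neuroendocrine cells. Its window held 10 and 11 strong peaks in alpha, 5, 10 and 9 in beta and 11 in each delta list. The peak at its 5′ end had a fold enrichment, the ratio of reads in the peak to the caller's local background, of 9.09 and 14.4 in alpha, 12.8, 11.3 and 17.9 in beta and 15.9 and 17.2 in delta. All 7 values passed the threshold, alpha 1 was lowest and beta 3 highest, and the beta range spanned most of the others. Its strongest summit lay in the untranslated exon 1, 0.155 kb inside the gene. The 250 bases just before the RefSeq start, of which the merged peaks covered part, are shown because this start had the highest fold enrichment of the family in 6 of the 7 lists, with each CpG in capitals:
Scn9a upstream: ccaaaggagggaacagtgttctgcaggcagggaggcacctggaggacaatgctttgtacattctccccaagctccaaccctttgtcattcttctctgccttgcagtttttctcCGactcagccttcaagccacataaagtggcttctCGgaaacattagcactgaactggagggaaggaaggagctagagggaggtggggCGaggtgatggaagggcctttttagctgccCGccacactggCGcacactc
This stretch is chr2:66634963-66635212 (GRCm38.p6, the assembly of mm10, minus strand). It holds 5 CpGs. Over the 300-base promoter of RefSeq, the observed to expected CpG ratio was 0.366, close to the median of 0.384 over 32851 promoters, with a GC content of 57.3%.

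Intron 1 of Scn9a held the other regions of its window that were open in all 7 libraries. Merging overlapping peaks of the 7 lists gave 16 regions in the Scn9a window, 14 of them in at least 2 libraries and 3 in all 7. Besides the start these were a pair of neighbours 38.6 and 37.4 kb inside the gene (chr2:66596129-66596810 and chr2:66597299-66597743). The first had fold enrichments of 7.23 and 10.6 in alpha, 7.05, 9.52 and 9.66 in beta and 8.20 and 7.22 in delta. The second had 5.42 and 6.02 in alpha, 4.0, 5.29 and 7.87 in beta and 9.43 and 7.30 in delta. The cell types overlapped at the first, and both delta values were above both alpha values at the second. The 250 bases around the strongest summit of each are shown on the gene's strand, since both were shared by every library. The capitals mark CATCTG, an E-box that neurogenic bHLH factors bind, TAATTA, a homeodomain core, and TGTTTAC, a forkhead core, on either strand:
Scn9a intron 1 at 38.6 kb: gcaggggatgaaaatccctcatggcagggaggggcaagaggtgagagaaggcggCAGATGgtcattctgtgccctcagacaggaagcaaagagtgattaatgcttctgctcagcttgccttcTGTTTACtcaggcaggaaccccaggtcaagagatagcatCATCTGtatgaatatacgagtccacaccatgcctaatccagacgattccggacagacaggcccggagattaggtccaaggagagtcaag
Scn9a intron 1 at 37.4 kb: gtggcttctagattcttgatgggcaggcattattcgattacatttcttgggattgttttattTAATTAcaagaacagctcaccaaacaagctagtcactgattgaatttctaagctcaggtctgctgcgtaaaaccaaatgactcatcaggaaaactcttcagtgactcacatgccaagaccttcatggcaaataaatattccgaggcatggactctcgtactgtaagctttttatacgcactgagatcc
The first (chr2:66596236-66596485, minus strand) holds the E-box letters at 2 places and the forkhead letters at 1, and the second (chr2:66597394-66597643, minus strand) the homeodomain letters at 1. Further along intron 1, a region at 54.7 kb passed in every list except beta 1, with 5.70 and 6.33 in alpha, 3.79 (weaker), 6.25 and 9.88 in beta, and 14.2 and 9.24 in delta.

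Scn9a also carried regions that were called in one cell type and not in another. Such a call needed a strong peak in 2 or more replicates of the first cell type and in none of the second. The one in the 3′ untranslated part of exon 28, 153 kb from the 5′ end (chr2:66482044-66482701), had no peak of any strength in either alpha list, 6.72, 6.25 and 5.71 in beta, and 5.0 and 3.97 in delta. All 5 beta and delta values passed the threshold and the beta values were the highest. The call of beta and not alpha was the only one of 28 calls at these genes that held both in the full lists and in lists restricted to their 25000 peaks of lowest p. The full lists were a harder check for calls against beta, since the beta 1 list alone held 518503 intervals. The call of delta and not alpha held in the full lists and was lost in the lists of 25000.

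The reverse pattern stood in intron 1 of Scn9a, 2.05 kb inside the gene, and there both alpha lists (7.14 and 5.56) and both delta lists (5.70 and 5.38) had strong peaks. Of the beta lists only beta 3 had a peak, at 2.23 and below the threshold, so the alpha and delta values lay above every beta value. Both calls against beta were kept in the lists of 25000 and lost in the full lists through that weaker peak. Weaker calls at Scn9a were a region at 23.7 kb in intron 1, which passed in beta 2 (4.35) and beta 3 (4.02) and had weaker peaks in beta 1 (1.80) and delta 2 (3.36). A region 68.6 kb inside the gene, in an exon of another transcript, passed in beta 3 (4.02) and both delta lists (4.30 and 5.04) and was absent from alpha. A region beyond the 3′ end, 156 kb from the 5′ end, passed in both alpha lists (6.0 and 3.67) and delta 2 (4.03) and was absent from beta.

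**Figure D3:**
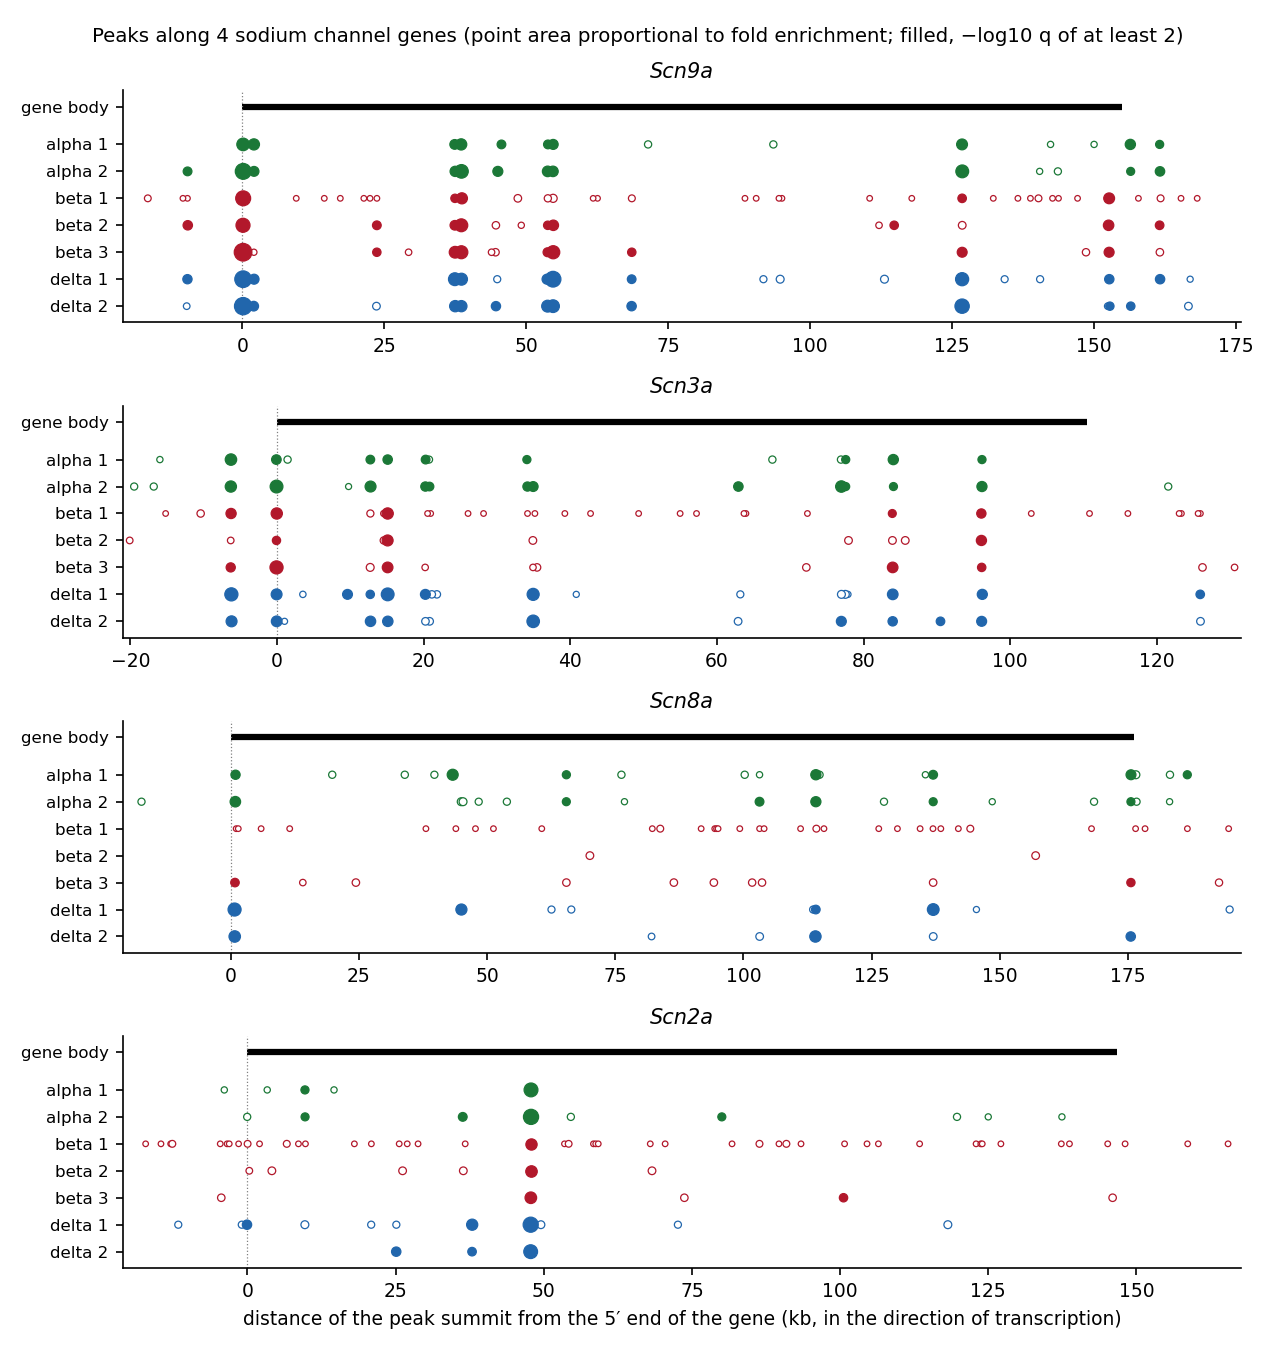
Summits of all deposited peaks along Scn9a, Scn3a, Scn8a and Scn2a, 1 row per library, against the distance from the 5′ end of the gene (x axis, kb), with point area proportional to fold enrichment and filled points for strong peaks (−log10 q of 2 or more). Scn9a and Scn3a show columns of filled points shared by the libraries, Scn8a has filled points in alpha and delta and 2 in beta 3 only among the beta lists, and Scn2a has 1 column shared by all, 47.9 kb inside the gene.

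In peaks per 10000, Scn9a had 2.08 ± 0.228 in alpha (SD, n = 2), 2.47 ± 0.602 in beta (SD, n = 3) and 2.49 ± 0.213 in delta (SD, n = 2), with p = 0.629 in the exact permutation test and an adjusted p of 0.908. The genes whose peaks per 10000 followed Scn9a most closely over the 7 libraries were Lyn (Pearson r = 0.976), Clstn3 (0.971) and Six3 (0.969), out of 17189 genes compared. These points share the length of each list, and Six3 had 0 to 3 peaks per library.

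Scn3a (chr2:65457118-65567627, minus strand) encodes Nav1.3, known from the embryonic nervous system. Its window held 9 and 12 peaks in alpha, 5, 3 and 5 in beta, and 10 and 9 in delta, so that every beta list was below the others in number. Per 10000 peaks of a list this gap closed, with beta 1 at 1.93 above alpha 1 at 1.73. The share of all genes with such a gap in number was not counted. Alpha had 2.09 ± 0.508 peaks per 10000 (SD, n = 2), beta 1.39 ± 0.502 (n = 3) and delta 2.14 ± 0.0236 (n = 2), and the difference did not pass (exact permutation test, p = 0.190, adjusted p = 0.659). The 5′ end had fold enrichments of 5.25 and 9.38 in alpha, 7.25, 3.91 and 9.87 in beta and 6.74 and 6.52 in delta, with complete overlap of the cell types. A region in intron 21, 96.1 kb inside the gene, was the other one open in all 7 lists, at 3.75 and 5.87 in alpha, 4.92, 5.93 and 4.02 in beta and 5.84 and 5.65 in delta. It is shown (chr2:65471420-65471669, minus strand) as the shared site far from the start, and it holds none of the 3 motifs:
Scn3a intron 21 at 96.1 kb: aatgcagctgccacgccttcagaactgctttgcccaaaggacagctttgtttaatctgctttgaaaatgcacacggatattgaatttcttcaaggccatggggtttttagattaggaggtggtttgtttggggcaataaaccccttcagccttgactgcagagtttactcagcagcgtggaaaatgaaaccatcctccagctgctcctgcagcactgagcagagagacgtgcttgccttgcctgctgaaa
A region 6.21 kb upstream of the gene passed in 6 lists, with 2.50 and below the threshold in beta 2 and 4.82 to 9.89 in the rest.

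Intron 1 of Scn3a showed opposite gaps at neighbouring regions. At 15.1 kb (chr2:65552346-65552845) the fold enrichment was 5.07 in alpha 1 with no peak in alpha 2, 7.25, 6.92 and 6.52 in beta and 9.38 and 6.17 in delta. At 12.8 kb (chr2:65554677-65555034) it was 4.29 and 6.85 in alpha and 3.98 and 6.17 in delta, against weaker peaks in beta 1 (2.90) and beta 3 (3.57) and none in beta 2. The first passed in every list except alpha 2, and the second was called in alpha and delta and not in beta. Both calls of the second region were lost in the full lists and in the lists of 25000. The second is shown (chr2:65554734-65554983, minus strand), with the forkhead letters in capitals:
Scn3a intron 1 at 12.8 kb: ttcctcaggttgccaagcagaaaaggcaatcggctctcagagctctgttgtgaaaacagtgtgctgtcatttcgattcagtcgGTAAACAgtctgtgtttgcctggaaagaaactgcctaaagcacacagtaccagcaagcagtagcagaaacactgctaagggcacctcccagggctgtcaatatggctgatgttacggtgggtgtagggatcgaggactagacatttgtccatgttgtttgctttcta
In intron 2, at 34.9 kb, both delta lists had the strongest peaks of the region (8.33 and 8.96), alpha 2 had 5.56, the 3 beta lists had weaker ones (1.80, 3.39 and 2.41) and alpha 1 had none. This call of delta and not beta was kept in the lists of 25000. At 20.2, 34.2 and 77.6 kb the alpha lists passed at 3.75 to 4.94 and no beta list did. At 20.2 kb delta 1 also passed, with the highest value of that region (5.62), beside weaker peaks in beta 3 (2.41) and delta 2 (3.28). Weaker peaks also lay at 34.2 kb in beta 1 (1.80) and at 77.6 kb in delta 1 (3.58). At 34.2 and 77.6 kb no delta list passed either, and none of these 3 calls against beta was kept in the lists of 25000.

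Scn2a (chr2:65620771-65767447, plus strand) encodes Nav1.2, an axonal channel of the brain. It had few peaks at its 5′ end and a strong one at an inner start in intron 1. At the 5′ end only delta 1 passed (5.02), and alpha 2 (2.93), beta 1 (2.63) and beta 2 (2.54) had weaker peaks. At the inner start, 48.0 kb downstream, all 7 lists passed, with 11.0 and 13.2 in alpha, 7.26, 7.58 and 7.69 in beta and 13.1 and 10.9 in delta. Every alpha and delta value was above every beta value there. The beta lists also had the lowest median fold enrichment over all their strong peaks. The 250 bases upstream of each start (chr2:65620519-65620768 and chr2:65668436-65668685, plus strand) are shown to set the start with peaks in all 7 lists beside the one with a passing peak in 1, with CpGs in capitals:
Scn2a upstream of the 5′ end: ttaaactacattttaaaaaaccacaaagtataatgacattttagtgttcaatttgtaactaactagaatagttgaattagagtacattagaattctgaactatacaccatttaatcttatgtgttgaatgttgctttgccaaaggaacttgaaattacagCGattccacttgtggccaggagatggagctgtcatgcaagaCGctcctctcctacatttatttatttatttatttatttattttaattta
Scn2a upstream of the inner start: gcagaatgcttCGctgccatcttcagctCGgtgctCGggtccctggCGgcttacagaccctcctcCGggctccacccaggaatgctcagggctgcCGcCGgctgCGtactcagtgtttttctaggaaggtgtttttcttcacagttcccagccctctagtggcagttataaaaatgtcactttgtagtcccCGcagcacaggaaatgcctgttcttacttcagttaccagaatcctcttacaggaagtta
The first holds 2 CpGs and the second 9. The RefSeq promoters had observed to expected CpG ratios of 0.368 and 0.529 and GC contents of 33.0% and 47.7%, against medians of 0.384 and 52.7% over all promoters.

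Intron 1 of Scn2a also held a region with peaks in delta alone, 37.9 kb inside the gene (chr2:65658463-65658866). The fold enrichment was 7.14 in delta 1 and 4.20 in delta 2, and none of the 5 alpha and beta lists had a peak there at any strength. The 250 bases around the summit (chr2:65658570-65658819, plus strand) hold the E-box letters once:
Scn2a intron 1 at 37.9 kb: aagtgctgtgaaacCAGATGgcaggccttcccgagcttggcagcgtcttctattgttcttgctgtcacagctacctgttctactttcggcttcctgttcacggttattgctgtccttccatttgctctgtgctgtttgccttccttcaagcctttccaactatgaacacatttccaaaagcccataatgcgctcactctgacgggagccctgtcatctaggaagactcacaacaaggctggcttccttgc
In the lists of 25000 the region remained in 1 delta list, so the call was lost there. Another region of intron 1, at 9.71 kb, passed in both alpha lists (3.75 and 3.67) and in no beta or delta list, with weaker peaks in beta 1 (1.80) and delta 1 (3.58), and it was in none of the alpha lists of 25000.

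The RE1 element, the site at which the repressor REST silences neuronal genes outside neurons, was described early on at Scn2a. A search for its conserved left and right parts CAGCACC and GGACAG, with 2 bases between them and on both strands, found 620 exact matches on the mouse chromosomes, of which 46 (7.42%) lay in a region open in at least 2 libraries. The sodium channel windows held 2 of them. One lies 0.805 kb upstream of the 5′ end of Scn2a and in no deposited peak of any of the 7 lists. It is shown with 20 bases on each side and the match in capitals (chr2:65619946-65620000, plus strand):
Scn2a RE1 match: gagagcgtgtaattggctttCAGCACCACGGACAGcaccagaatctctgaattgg
The other lies 0.527 kb inside Scn3b, with the same 15 letters, at the edge of the start region, where alpha 2, beta 1 and beta 2 had peaks with −log10 q of 22.6, 3.21 and 3.75 that overlapped it in whole or in part and the other 4 lists had none. With 1 mismatch allowed there were 7241 matches, of which 249 (3.44%) were in open regions, and 9 were in the sodium channel windows. Beside the Scn3b match, 1 of these 9 lay in an open region, in exon 12 of Scn8a. A match of letters is not a bound site.

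Scn8a (chr15:100869858-101045938, plus strand) encodes Nav1.6, the channel of the axon initial segment and nodes of Ranvier. Its window held 7 and 6 peaks in alpha, 0, 0 and 2 in beta, and 5 and 3 in delta. In peaks per 10000 it had 1.28 ± 0.0858 in alpha (SD, n = 2), 0.175 ± 0.303 in beta (SD, n = 3) and 0.891 ± 0.243 in delta (SD, n = 2). The 3 cell types did not overlap in number, and the share of all genes without such overlap was not counted. This was the lowest p of the 9 genes (exact permutation test, p = 0.0286). Of all genes tested, 8.06% had a p of at most 0.05 in this test, so 1 such gene among 9 is near the background. It did not pass the correction (adjusted p = 0.527, and 0.199 to 1.00 over the alternatives, the lowest in limma), at a background of 0% of genes called, and with the full lists its p was 0.114.

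The start of Scn8a was also lowest in beta. Its fold enrichment was 4.86 and 6.33 in alpha and 9.74 and 7.53 in delta. Beta 3 had 4.17, beta 1 a weaker peak of 1.80, and beta 2 no peak. Every beta value was below every alpha value, and both alpha values were below both delta values. The median strong peaks of the whole lists had the same order, so this order is not particular to the Scn8a start. The peak lay 19 bases from the RefSeq start at position 100870645. The 250 bases before that start (chr15:100870395-100870644, plus strand) are shown as the most CpG-rich of the promoters of the 7 genes that the RefSeq table matched, with 30 CpGs in capitals:
Scn8a upstream: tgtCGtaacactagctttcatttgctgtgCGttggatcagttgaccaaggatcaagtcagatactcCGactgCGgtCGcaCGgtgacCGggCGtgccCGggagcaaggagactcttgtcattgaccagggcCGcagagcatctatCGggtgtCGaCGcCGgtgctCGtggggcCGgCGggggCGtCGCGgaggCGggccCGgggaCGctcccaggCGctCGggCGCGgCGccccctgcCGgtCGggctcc
The observed to expected CpG ratio of its promoter was 1.05, above 96.4% of all promoters, at a GC content of 70.0%.

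Inside Scn8a, a region in coding exon 12, 114 kb from the 5′ end (chr15:100983765-100984298), was called in alpha and delta and not in beta. The fold enrichment was 5.97 and 5.87 in alpha and 4.30 and 7.38 in delta, and beta 1 alone of the beta lists had a peak, at 2.68 and below the threshold. The call of alpha against beta was kept in the lists of 25000, and that of delta was not. A region in the untranslated part of exon 27 passed in both alpha lists (5.63 and 3.67), beta 3 (3.91) and delta 2 (5.04). In intron 13, at 137 kb, both alpha lists passed (4.41 and 3.67), as did delta 1 (7.88), beside weaker peaks in beta 1, beta 3 and delta 2. The call of alpha and not beta there was lost in the full lists and in the lists of 25000.

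A region in intron 1 of Scn8a, 65.5 kb from the 5′ end and 936 bases before an inner start, passed in the alpha lists only (3.75 and 3.67, with a weaker peak of 3.21 in beta 3). The 250 bases around its summit hold 6 units in a row of the telomere-type repeat CCCTAA, and of 51202 regions of at least 2 libraries 171 (0.334%) hold at least 4 such units in a row. The part of the repeat in this call was not tested.

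Scn1a (chr2:66270778-66440840, minus strand) encodes Nav1.1, prominent in inhibitory neurons. Its 5′ end passed in no list, and the region of its own that passed in the most lists was an inner start 30.8 kb downstream, in an untranslated exon of another transcript. There the fold enrichment was 4.86 and 4.32 in alpha, 3.85, 4.79 and 2.94 in beta and 3.49 and 3.97 in delta, and all but beta 3 and delta 1 passed. The cell types overlapped. The strongest peak of its window, with 13.9 to 20.6 in all 7 lists, lay 103 bases from the start of the neighbouring gene Ttc21b, which shares the window. Within intron 1, a region at 48.7 kb passed in both alpha lists (5.0 and 5.13) and beta 1 (5.17), and no delta list had a peak there. A region at 85.7 kb passed in both alpha lists (4.50 and 3.67) and beta 3 (4.02), beside a weaker delta 1 peak (2.82). The peaks per 10000 were 0.996 ± 0.322 in alpha, 0.986 ± 0.491 in beta and 0.572 ± 0.208 in delta (SD, n = 2, 3 and 2, exact permutation test, p = 0.505, adjusted p = 0.869).

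Scn7a (chr2:66673425-66784914, minus strand) encodes Nax, a sodium-level sensor that is not opened by voltage. Among the 5′ ends of the 9 genes, its own was the only one called in one cell type and not in another. The fold enrichment was 6.25 and 5.04 in delta, 5.87 and 3.0 (below the threshold) in alpha, and 3.21 (below the threshold) in beta 3, with no peak in beta 1 and beta 2. The difference between delta and beta thus rested on peaks of 5.04 and 6.25, and alpha 2 lay between them. The call was lost in the full lists, through the weaker beta 3 peak, and in the lists of 25000, where 1 delta list kept it. Its promoter was CpG-poor, with an observed to expected ratio of 0.139, above 19.2% of promoters. The rest of the window held regions of 1 or 2 libraries, at 3.57 to 5.38.

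**Figure D4:**
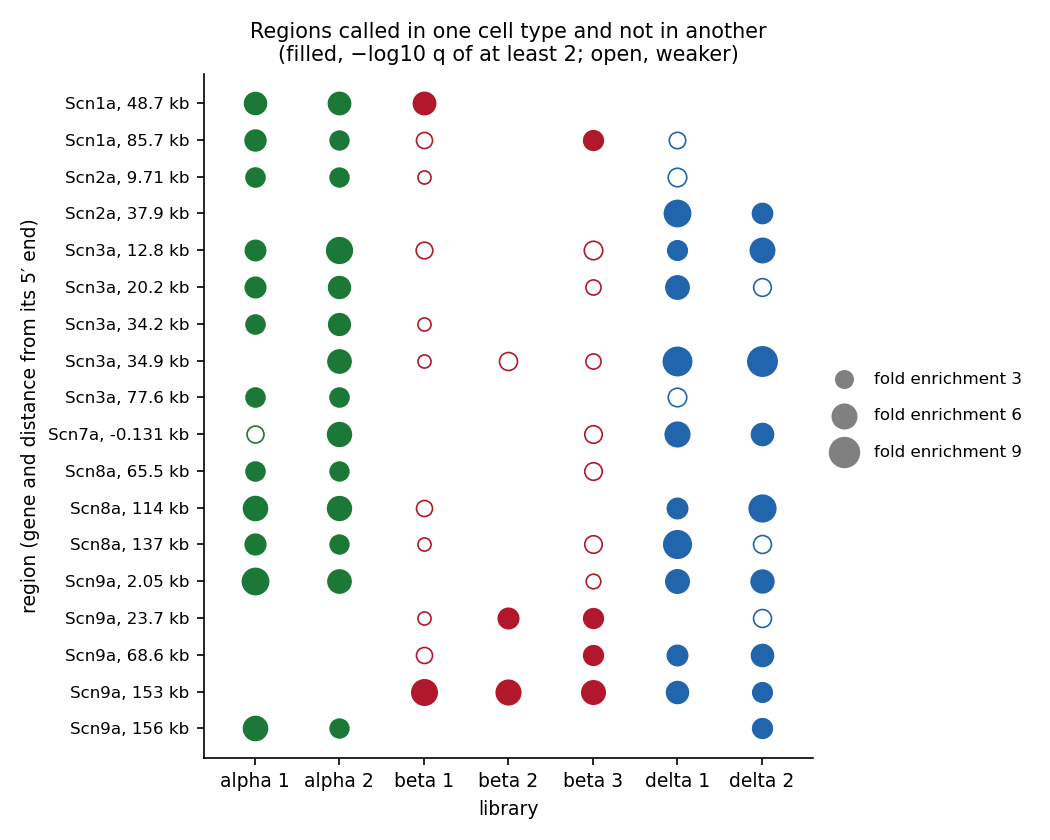
The 18 regions of the sodium channel windows that were called in one cell type and not in another, each named by gene and distance from the 5′ end (y axis), against the 7 libraries (x axis), with point area proportional to fold enrichment and open points for peaks below the threshold. The alpha and delta columns are filled more often than the beta columns, and Scn9a at 153 kb is filled in the 5 beta and delta libraries only.

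Over all windows there were 70 merged regions, of which 40 were in at least 2 libraries, 30 in 1 and 8 in all 7. By the position of the strongest summit, 42 lay in introns. Of all 111614 merged regions of the 7 lists, 51202 were in at least 2 libraries. No such share over all regions is given here for all 7 libraries or for introns. Of the 40, 10 were called in alpha and not in beta (background 14.9% of 51202 regions), 6 in delta and not in beta (13.5%), 6 in alpha and not in delta (8.32%), 3 in delta and not in alpha (7.90%), 2 in beta and not in alpha (5.63%) and 1 in beta and not in delta (4.15%). As shares of the 40 these are 25%, 15%, 15%, 7.5%, 5% and 2.5%. The beta lists were the shortest, and in lists of 25000 peaks the count for alpha and not beta was 2, for alpha and not delta 0 and for delta and not beta 3. In the full lists the balance turned, with 7 for alpha and not beta against 9 for beta and not alpha, and 5 for delta and not beta against 7 for beta and not delta. Without alpha 1 the count for alpha and not beta was 22, and without alpha 2 it was 16, since the alpha library left then decided the call alone. Of all 28 calls, which fell in 18 regions, 11 held in the full lists, 5 in the lists of 25000 and 1 in both. Of the 40 regions, the 250 bases around the summit held CATCTG in 10 (25%, against 20.8% of all regions), TGTTTAC in 4 (10%, against 6.68%) and TAATTA in 1 (2.5%, against 6.24%), counted on both strands.

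Among the auxiliary subunits only Scn3b had a peak in every library. Scn3b (chr9:40269217-40291618, plus strand) encodes the beta3 subunit, which associates with several of the alpha subunits. The fold enrichment at its 5′ end was 10.1 and 10.6 in alpha, 4.62, 5.0 and 9.09 in beta, and 11.8 and 11.3 in delta. All 7 passed, every beta value was below every alpha value, and every alpha value was below both delta values. The median fold enrichment of the strong peaks of the whole lists had the same order. How many other starts share this order was not counted, so it cannot be called particular to Scn3b. Its other regions were in 1 library each. Scn4b (chr9:45138395-45154152, plus strand), which encodes the subunit linked to resurgent sodium current, had 2 passing peaks, both in alpha 1 at 3.75, one at its start and one 27.2 kb from it. The promoter of Scn4b was CpG-rich, with a ratio of 0.795, above 78.7% of promoters. Scn2b (chr9:45117782-45130070, plus strand) had no deposited peak at its start in any list, and the 1 strong peak of its window was the Scn4b start peak of alpha 1. Weaker peaks were in the lists at both windows, 18 peaks of any strength over the 7 lists at Scn2b and 20 at Scn4b.

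Of 12 further genes of the sodium channel pathway, 7 were open at the 5′ end in alpha, 6 in beta and 6 in delta (51.5%, 41.4% and 48.4% of all genes), and 5 in all 3. They were the alpha subunits Scn4a, Scn10a and Scn11a, the intracellular fibroblast growth factors Fgf11, Fgf12, Fgf13 and Fgf14 that bind channel tails, the ankyrins Ank2 and Ank3 that anchor channels, the sodium leak channel Nalcn, the ubiquitin ligase Nedd4l and the repressor Rest. Start peaks passed in all 7 lists at Fgf12 and Nalcn, and in none at the muscle gene Scn4a and the sensory neuron genes Scn10a and Scn11a. Of the 12, 2 were called at the 5′ end in alpha and not in beta (4.20% of all genes), Fgf13 and Fgf14. Fgf13 had 7.79 and 6.04 in alpha, weaker peaks in beta 2 and beta 3 (3.42 and 3.21), and 4.55 and 3.85 in delta, so that it was also called in delta and not in beta (2.95% of all genes). Fgf14, which slows channel inactivation, had 5.29 and 3.89 in alpha and weaker peaks of 2.68 and 2.54 in beta and 2.56 in delta 2, and was also called in alpha and not in delta (1.36% of all genes). These calls hold for the 5′ end only. With all annotated starts admitted, Fgf13 had a strong peak in 2 of 3 beta lists, and Fgf14 in 3 beta and 2 delta lists. Rest was open in all 3 cell types, with 3.17 to 7.28. By its 5′ end Ank3 was open in beta alone, with strong peaks in 3 of 3 beta lists and in 1 of 2 lists each of alpha and delta. It was thus not called in one cell type and not in another. With all annotated starts admitted, Ank3 was open in all 3 cell types. In the count of window peaks Fgf13, which is X-linked in pools made by sex, had p = 0.0190 in the exact permutation test and an adjusted p of 0.527, and no other gene of the 12 was at 0.05 or below before correction.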

How the data were processed

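ATAC-Seq was measured in 7 libraries of FACS-sorted mouse islet cells (2 alpha, 3 beta, 2 delta), grouped by the sample labels. Per the submitters' processing notes, the authors used FastQC, Trimmomatic, Bowtie2, Picard and MACS2 on mm10, with single-end reads and peaks called per library. The study gives mapped reads and the share in peaks for each library. It lists fewer unique reads for each beta library it kept than for either alpha library. The delta libraries lay above and below the highest of these beta values. Those values and signal tracks were not used here, so differences in depth remain in the counts. The authors deposited narrowPeak lists whose columns hold a score, a fold enrichment (a ratio to local background), a −log10 p and a −log10 q. No deposited −log10 p was below 2.01.

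Repeated intervals were reduced to 1. All calls used peaks that reached a −log10 q of 2, and weaker ones are named as such. Gene bodies came from GENCODE release M21 and sequences from the GRCm38.p6 genome and the RefSeq promoter table, which matched 7 of the 9 genes (Scn3a and Scn3b were not in it). Peaks overlapping by 1 base across libraries were merged. The window test was an exact permutation test with Benjamini-Hochberg adjustment over all genes tested, two-sided in that it has no direction, and limma 3.58.1 in R 4.3.3 was an alternative. Some genes of the pathway and marker lists and one sequence are not reported here. Functions were tested on simulated data. The genes named were the 9 members, up to 3 regions per gene with peaks in the most libraries, every region called in one cell type and not in another, the pathway genes whose calls differed, and the 3 genes most like Scn9a. The repeat search was added after the sequences were seen. The members, gene lists and motifs were chosen with earlier results of these data known. Alternatives were the full lists, lists of the 25000 peaks of lowest p, no flank, a 3 kb start window, all transcript starts, all replicates, a replicate block and leaving out each library. The study's methods state that the cell types came from the same animals, pooled by sex. Because alpha and delta cells came from mice of different Cre lines, only beta libraries can share animals with either, and the labels do not say which do. The permutation test takes the libraries as independent and its p-values measure only the spread between them. Same-numbered libraries did not deviate together (correlations of −0.0374 to −0.00540), so the numbers were not taken as pairs, which does not test whether libraries share animals.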

Additional observations from a re-analysis of the deposited data

How the results depend on the processing

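The calls between cell types depended on how many peaks each list was allowed. With all deposited peaks the counts of regions were 9 for beta and not alpha, 5 for delta and not alpha and 7 for beta and not delta (2, 3 and 1 as reported), beside 7 for alpha and not beta, 9 for alpha and not delta and 5 for delta and not beta, so that calls in beta outnumbered those against it. In lists of 25000 they were 2 for alpha and not beta, 0 for alpha and not delta and 3 for delta and not beta (10, 6 and 6). With all replicates required, beta and not alpha fell to 1 and beta and not delta to 0. Leaving out 1 library at a time, where a cell type left with 1 library needed that library only, gave 11 to 22 for alpha and not beta (22 without alpha 1, 16 without alpha 2), 1 to 3 for beta and not alpha, 9 to 14 for alpha and not delta, 4 to 8 for delta and not alpha, 0 to 2 for beta and not delta (0 without beta 2 or beta 3) and 6 to 13 for delta and not beta. No region count changed by more than 1.5 times without the flank. Genes open at the 5′ end numbered 2 in alpha in lists of 25000 and 5 in beta in the full lists or with any transcript start (4 and 3 as reported), and the delta count stayed within 1.5 times. In the full lists the windows held 74, 78, 259, 45, 66, 86 and 46 peaks in alpha 1, alpha 2, beta 1, beta 2, beta 3, delta 1 and delta 2. The window test called 0 genes under every alternative, limma included. With the replicate block, which left out beta 3, it also called 0 genes, and the smallest p this block allows is 0.167, so it cannot reach 0.05 even before adjustment. Leave-one-out p for Scn8a ran from 0.0167 to 0.0667. The cause of these shifts was not tested beyond the number of peaks and libraries that each alternative admits. Fold enrichments were not tested between libraries, whose read depth was not used here.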
